A study of Saccharomyces cerevisiae with 4 samples.

Results

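The genes described here encode enzymes of the oxidative stress defence and activators of their expression. They are the superoxide dismutase genes SOD1 (YJR104C) and SOD2 (YHR008C), the catalase gene CTT1 (YGR088W), the peroxiredoxin genes TSA1 (YML028W), AHP1 (YLR109W) and PRX1 (YBL064C), the thioredoxin gene TRX2 (YGR209C), the peroxidase gene GPX2 (YBR244W), and the activator genes YAP1 (YML007W) and SKN7 (YHR206W). They were selected by gene symbol, and all 10 were found among the 5343 genes measured, with 1 probe set each. A wider list of 78 genes in 11 roles, which contains these 10, gives the rest of the response.

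Respiring mitochondria leak electrons to oxygen and so make superoxide. Superoxide dismutases turn superoxide into hydrogen peroxide, and catalases, peroxiredoxins and glutathione peroxidases reduce the peroxide, the last groups with electrons that come from NADPH through thioredoxin or glutathione. In budding yeast, peroxide oxidizes the transcription factor Yap1, which then stays in the nucleus and activates many of these genes, often together with Skn7, while Msn2 and Msn4 activate CTT1 and other general stress genes.

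The study asked what the RSC chromatin remodeling complex does under respiration. WT cells were the diploid strain BY4743 (MATa/α, his3Δ1, leu2Δ0 and ura3Δ0 in both copies, and 1 deleted copy each of MET15 and LYS2). The mutant was BYI-3 (MATa/α, nps1-13 in both copies, with his3Δ1, leu2Δ0, ura3Δ0 and met15Δ0 in both copies), in which Nps1 (Sth1), the ATPase of RSC, carries substitutions in its bromodomain. Both strains were pre-grown in glucose medium and kept for 4 h in YPEG, a medium with ethanol and glycerol, and each strain was measured on 2 Affymetrix Yeast Genome 2.0 arrays.

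Several strain markers did not follow these genotypes. LEU2 had signals of 14.0 and 37.1 in WT, and 4446 and 4225 in the samples labelled nps1-13. HMRA1, the mating-type transcript a1, had 1599 and 1896 against 0.90 and 6.10, and the alpha-factor gene MF(ALPHA)1 had 45.0 and 41.6 against 6109 and 6228. The haploid-specific genes STE18, GPA1, STE4, STE5, FUS3, HO and RME1 also had higher signals on both nps1-13 arrays than on both WT arrays. STE18 had 29.8 and 13.4 against 1619 and 1307, and STE5 had 710 and 590 against 979 and 1001. The alpha-specific genes MF(ALPHA)2, STE3 and SAG1 did so as well, whereas none of the a-specific genes MFA1, MFA2, STE2, BAR1, AGA2 and STE6 did. MET17 (MET15) followed its genotype, with means of 3961 ± 110 in WT and 16.9 ± 1.20 in nps1-13 (SD, n = 2 arrays each). HIS3, listed as his3Δ1 in both strains, had signals of 3335 and 2812 in WT and 2801 and 2558 in nps1-13. What its probe set reads of this allele was not tested. LYS2, with 1 deleted copy listed for WT alone, had 1371 and 1208 in WT and 1371 and 1227 in nps1-13. NPS1 (STH1) itself had means of 4695 ± 455 and 6972 ± 633, which checks no label, since the allele carries substitutions and its transcript is still made. The arrays labelled nps1-13, called nps1-13 below, thus differ from WT in mating-type, haploid-specific and marker genes as well. These differences cannot be told apart from the effect of the nps1-13 allele in any value given here. Both arrays of the mutant were affected, so no result could be given without them. Separate cultures for the replicates of a strain are not stated in the labels, and the p-values measure the spread between arrays alone, which may be technical. In RNA from whole cultures, a change in every cell and a change in the share of cells that express a gene cannot be told apart.

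The deposited values are signals on a linear scale with array medians of 3051 and 2770 in WT but only 2158 and 2024 in nps1-13. Changes are therefore given relative to the median of each array ("centred"), which adds 0.48 to every log2 fold change of the deposited scale. Because the shift between the strains also varied with signal, each call was repeated on the deposited scale, after quantile normalization, after scaling to 1 trimmed mean, and after cyclic loess normalization. "Rose" and "fell" are kept for genes that passed an adjusted p of 0.05 in limma in the same direction under all 5 scalings. By this rule 503 of all genes rose, as many as were higher on the deposited scale, and 1618 fell. A gene that was higher under every scaling but the deposited one is thus not said to have risen. All other changes carry the name of their scale.

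Of the 10 genes, CTT1 rose and SOD2 fell in nps1-13. The other 8 had calls that depended on the scaling, and none of the 10 reached a 2-fold ratio of mean signals in either direction when centred. Across all genes tested, 9.41% rose and 30.3% fell by this rule, so that 1 of the 10 rising is near the background. Whether 1 of the 10 falling differs from its share was not tested, and 10 genes are few for such a comparison. When centred, 8 of the 10 were higher, 1 was lower and 1 did not pass, where 42.7% of all genes were higher and 34.6% lower. The median log2 fold change of the 10 was 0.31 when centred, -0.17 as deposited, 0.048 by quantiles, 0.18 by trimmed means and 0.067 by cyclic loess, beside 0.066, -0.41, -0.010, -0.065 and -0.0015 over all genes. On the deposited scale 1 of the 10 was higher and 5 were lower (9.41% and 64.3% of all genes), and by quantiles 2 were higher and 1 was lower (36.4% and 37.7% of all genes). By trimmed means 6 were higher and 2 lower (33.0% and 43.2% of all genes), and by cyclic loess 2 were higher and 1 was lower (36.7% and 36.8%). The arrays of the strains did not overlap for 9 of the 10 on either the centred scale (49.0% of all genes higher, 40.3% lower) or the deposited one (13.6% higher, 72.5% lower).

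**Figure D1:**
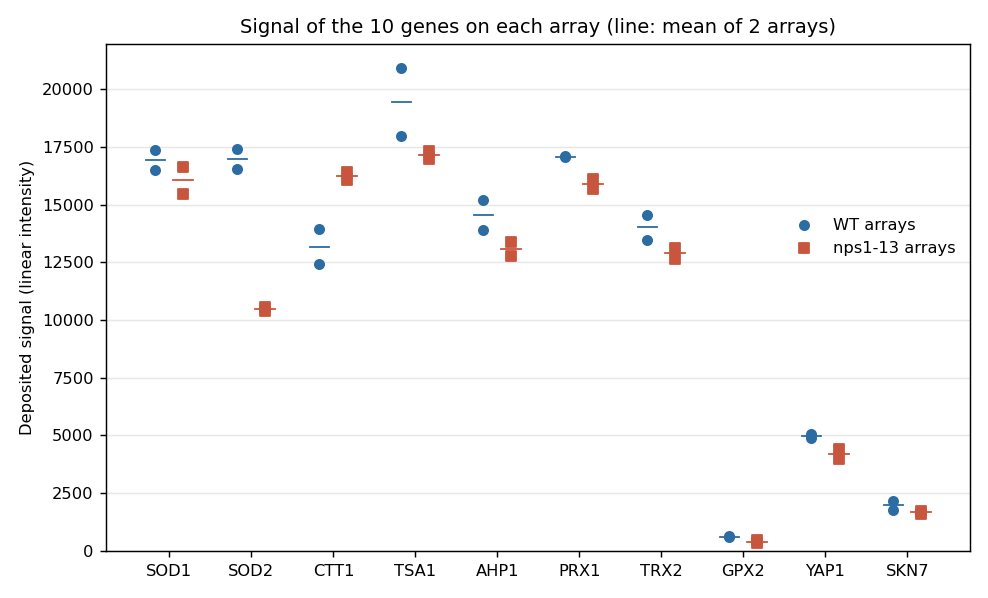
Deposited signal (linear intensity, y axis from 0) of the 10 genes on each of the 2 WT arrays (circles) and 2 nps1-13 arrays (squares), with lines at the mean of each strain. The nps1-13 arrays lay above the WT arrays for CTT1 only, overlapped them for SOD1, and lay below them for the other 8, with the widest gap for SOD2.

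The superoxide dismutase genes parted in nps1-13, where SOD2 fell and SOD1 did not. SOD1, the copper and zinc enzyme of the cytosol and the intermembrane space, had signals of 17378 and 16493 in WT and 15464 and 16639 in nps1-13. SOD2, the manganese enzyme of the mitochondrial matrix, had 17423 and 16554 in WT and 10585 and 10402 in nps1-13. The SOD1 arrays of the strains overlapped on the deposited scale, whereas both nps1-13 arrays of SOD2 were far below both WT arrays. The mean signal of SOD2 was 16988 ± 614 in WT and 10494 ± 130 in nps1-13 (SD, n = 2 arrays each).

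SOD2 had a log2 fold change of -0.22 when centred (standard error 0.06, 95% interval -0.36 to -0.08, adjusted p = 0.0085 from limma), with -0.69 as deposited, -0.53 by quantiles, -0.35 by trimmed means and -0.50 by cyclic loess. Without WT replicate 2 the centred call of SOD2 was lost (log2 fold change -0.19, adjusted p = 0.097 from limma). SOD1 was at 0.40 when centred (standard error 0.08, adjusted p = 0.0011 from limma) and passed there and by trimmed means (0.27), but not as deposited (-0.078), by quantiles (0.048) or by cyclic loess (0.085).

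The log2 difference between related genes on the same array, taken for 10 pairs, is the same on the deposited, centred and trimmed-mean scales, but quantile and cyclic loess normalization can change it. The log2 signal of SOD1 minus that of SOD2 was -0.0037 and -0.0054 in WT, whereas it was 0.55 and 0.68 in nps1-13. The arrays did not overlap, and SOD1 changed 1.53-fold relative to SOD2 (0.62 on the log2 scale, combined standard error 0.10, exact two-sided permutation p = 0.33). With 2 arrays against 2, 0.33 is the smallest p that this test allows, so no pair can pass 0.05. The combined standard error joins the centred limma standard errors of the 2 genes as if they were independent. It leaves out that both genes were read on the same arrays, so it is not the spread of the differences themselves. Both probe sets gave like signals in WT, which says nothing of transcript amounts between genes, and the difference was about as large after quantile normalization (0.57) and cyclic loess (0.58).

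Of 5 genes that handle copper or manganese for these enzymes or beside them, 3 fell. ATX1, a copper chaperone of the cytosol, had 4369 and 4420 in WT and 2363 and 2050 in nps1-13, and fell by 0.52 on the log2 scale when centred (standard error 0.06, adjusted p = 4.84e-05 from limma). CTR1, the high-affinity copper transporter of the plasma membrane, had 16747 and 15259 against 9222 and 9128 and fell with -0.32. SMF2, a manganese transporter that feeds Sod2, fell with -0.19, a call that was lost without WT replicate 2 (adjusted p = 0.077 from limma). In contrast, CCS1, the chaperone that loads copper into Sod1, was at 0.14 when centred and -0.33 as deposited, and passed as higher on the centred scale alone. MTM1, a mitochondrial carrier protein needed for Sod2 activity, was at 0.062 when centred, where it did not pass, and at -0.41 as deposited. Of these 7 genes including both dismutases, 4 fell and 0 rose, where 30.3% of all genes fell and 9.41% rose, and their median was -0.19 when centred and -0.34 by quantiles, beside 0.066 and -0.010 over all genes.

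Catalase genes rose. CTT1, the cytosolic catalase, had signals of 13946 and 12417 in WT and 16060 and 16401 in nps1-13, so that both mutant arrays were above both WT arrays even before centring. Its log2 fold change was 0.78 when centred (standard error 0.07, 95% interval 0.63 to 0.93, adjusted p = 3.55e-06 from limma), 0.30 as deposited, 0.47 by quantiles, 0.65 by trimmed means and 0.48 by cyclic loess. The centred change was 1.72-fold and lay at percentile 91.4 of all genes, against 81.5 by quantiles. CTA1, the peroxisomal catalase that works beside fatty acid oxidation, had 8408 and 8084 in WT and 12870 and 12124 in nps1-13 and rose 2.11-fold when centred (log2 1.08, standard error 0.06, adjusted p = 1.35e-07 from limma).

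CTT1 changed less than CTA1 on the same arrays. The log2 signal of CTT1 minus that of CTA1 was 0.73 and 0.62 in WT and 0.32 and 0.44 in nps1-13, a change of -0.30 (combined standard error 0.09, exact two-sided permutation p = 0.33) and of -0.39 after quantile normalization. CCP1, the cytochrome c peroxidase of the intermembrane space, was at 0.39 when centred, 0.16 by quantiles and -0.086 as deposited, where it did not pass.

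**Figure D2:**
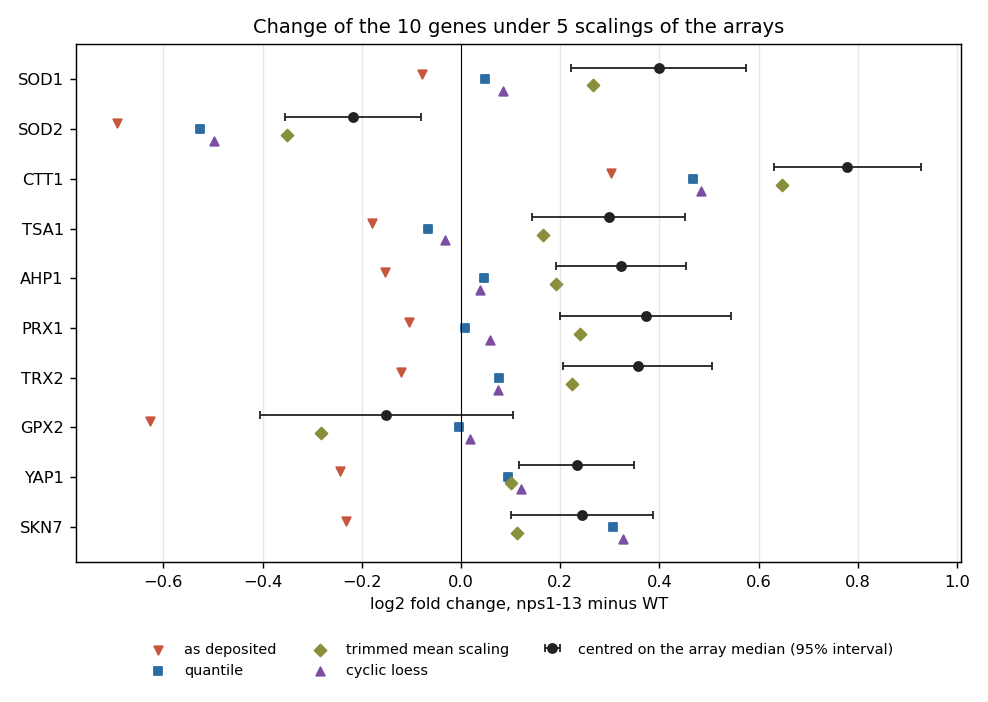
Change of the 10 genes as log2 fold change, nps1-13 minus WT (x axis), with a row per gene and a symbol per scaling; bars are 95% intervals of the centred value from limma. CTT1 is above 0 and SOD2 below 0 with every symbol, whereas SOD1, TSA1, AHP1, PRX1, TRX2, YAP1 and SKN7 are below 0 as deposited and above 0 when centred.

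Among the peroxiredoxins TSA2 rose and DOT5 fell, while the calls of TSA1, AHP1 and PRX1 changed with the scaling. TSA1, the main cytosolic peroxiredoxin, had signals of 20932 and 17996 in WT and 17332 and 16961 in nps1-13. AHP1, which prefers organic peroxides, had 15211 and 13918 against 13391 and 12787, and PRX1, the peroxiredoxin of the mitochondrial matrix, had 17057 and 17107 against 15688 and 16098. In each of these 3 genes both mutant arrays were below both WT arrays on the deposited scale, by less than the shift of the array medians.

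TSA1, AHP1 and PRX1 were at 0.30, 0.32 and 0.37 on the log2 scale when centred, with standard errors of 0.07, 0.06 and 0.08, and passed as higher there (adjusted p = 0.0029, 0.00062 and 0.0014 from limma). The call of TSA1 was lost without WT replicate 2 (adjusted p = 0.060 from limma). By quantiles they were at -0.067, 0.047 and 0.0072 and none of the 3 passed. As deposited they were at -0.18, -0.15 and -0.10, and TSA1 and AHP1 passed as lower. Relative to TSA1 on the same array, PRX1 changed by 0.075 (combined standard error 0.10) and AHP1 by 0.026 (combined standard error 0.09), with overlapping arrays (exact two-sided permutation p = 1.0 for both).

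TSA2, the cytosolic paralog of TSA1 that is known to be induced by peroxide, had 2981 and 2850 in WT and 5392 and 4603 in nps1-13. It rose 2.38-fold when centred (log2 1.25, standard error 0.06, adjusted p = 6.99e-08 from limma) and had 1.17 by quantiles. Relative to TSA2, TSA1 changed by -0.95 on the log2 scale (combined standard error 0.09, exact two-sided permutation p = 0.33), and by -1.24 after quantile normalization. DOT5, a nuclear peroxiredoxin, had 5731 and 5249 against 3712 and 3511 and fell with -0.13 when centred and -0.25 by quantiles. The centred call of DOT5 was lost without WT replicate 1 and without WT replicate 2 (adjusted p = 0.101 and 0.133 from limma). SRX1, sulfiredoxin, which repairs overoxidized peroxiredoxins, was at 0.22 when centred, 0.39 by quantiles, 0.086 by trimmed means and -0.26 as deposited, and its centred call was lost without WT replicate 2 and without nps1-13 replicate 1.

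**Figure D3:**
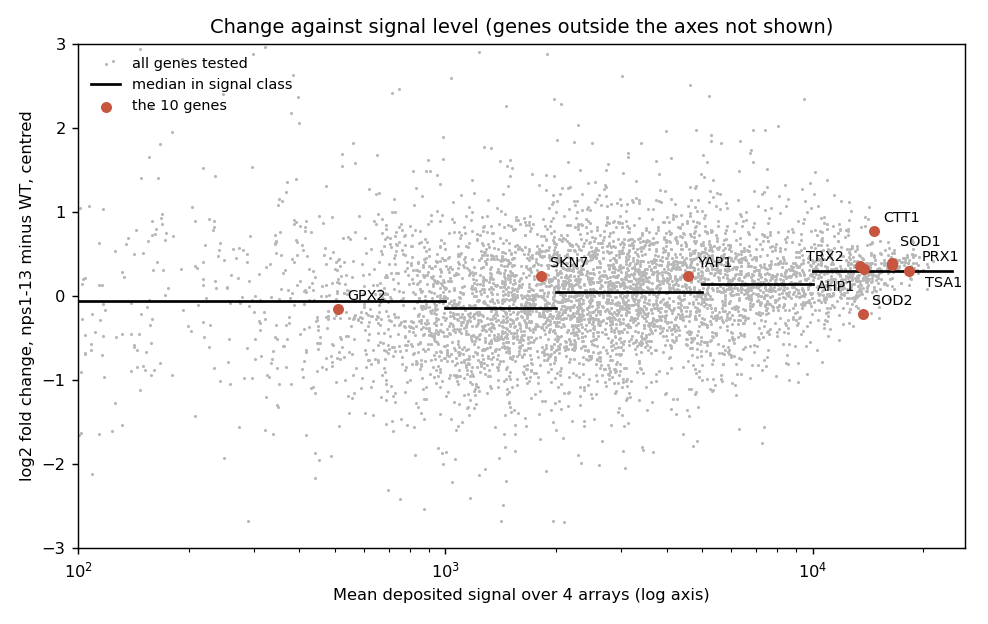
Centred log2 fold change, nps1-13 minus WT (y axis), against mean deposited signal on a log axis, for all genes tested (grey) and the 10 genes (red), with black lines at the median of all genes in each of 5 signal classes. SOD1, TSA1, AHP1, PRX1 and TRX2 lie close to the line of the brightest class at 0.30, CTT1 lies above it and SOD2 below it.

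The centred change differed between signal classes. The mean signal of 7 of the 10 was above 10000, and the 497 genes above that level had a median centred log2 fold change of 0.30, with 0.15 for the 893 genes between 5000 and 10000, 0.050 between 2000 and 5000, -0.15 between 1000 and 2000, and -0.054 for the 996 genes below 1000. By quantiles and by cyclic loess these medians were -0.0024 and 0.013 in the bright class. The highest signal on any array was between 20490 and 23318, where TSA1, the brightest of the 10, reached 20932 in WT, and saturation of bright probe sets was not tested.

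In the thioredoxin system 3 genes of 7 fell, where 30.3% of all genes did, and TRX2 was not among them. TRX2, a cytosolic thioredoxin and a classical Yap1 target, had 14547 and 13485 in WT and 12654 and 13124 in nps1-13. It was at 0.36 on the log2 scale when centred (standard error 0.07, adjusted p = 0.00080 from limma), 0.22 by trimmed means, 0.076 by quantiles and -0.12 as deposited, and passed under centring and trimmed means only. TRX1, its cytosolic paralog, had 15712 and 14802 against 11112 and 9525. Its log2 fold change was -0.092 when centred, where it did not pass, and -0.37 by quantiles, where it passed as lower.

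TRX2 was higher in nps1-13 relative to TRX1. The log2 signal of TRX2 minus that of TRX1 was -0.11 and -0.13 in WT and 0.19 and 0.46 in nps1-13, a change of 0.45 (combined standard error 0.09, exact two-sided permutation p = 0.33) that was 0.44 both by quantiles and by cyclic loess. As with the dismutases, these probe sets gave like signals in WT. TRX3, the mitochondrial thioredoxin, had 3486 and 3035 in WT and 1880 and 1781 in nps1-13 and fell with -0.35 when centred and -0.36 by quantiles. Relative to TRX3, TRX2 changed by 0.71 on the log2 scale (combined standard error 0.08, exact two-sided permutation p = 0.33), and by 0.44 after quantile normalization.

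The thioredoxin reductases TRR1 (cytosolic) and TRR2 (mitochondrial) were at 0.047 and 0.037 when centred, where they did not pass, and at -0.43 and -0.44 as deposited, where both passed as lower. TRR1 also passed as lower by quantiles (-0.15) and by cyclic loess (-0.17). Methionine sulfoxide reductases, which return oxidized methionine to methionine with electrons from thioredoxin, both fell. MXR2, the mitochondrial enzyme, had 4500 and 4264 in WT and 1576 and 1497 in nps1-13, with a log2 fold change of -1.04 when centred (standard error 0.05, adjusted p = 1.04e-07 from limma). MXR1, the enzyme of the cytosol, had 2234 and 2022 against 1165 and 1049 and a log2 fold change of -0.47.

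In the glutathione system GSH2 fell and GTT1 rose, and the call of GPX2 depended on the scaling. GPX2, a glutathione peroxidase homolog that uses thioredoxin and is induced through Yap1, was the dimmest of the 10, with 627 and 605 in WT and 455 and 350 in nps1-13. It was at -0.15 on the log2 scale when centred (standard error 0.11, 95% interval -0.41 to 0.10, adjusted p = 0.245 from limma), -0.63 as deposited and -0.0044 by quantiles. GPX2 passed as lower on the deposited scale and by trimmed means (-0.28), and also when nps1-13 replicate 1 was left out of the centred fit (-0.29, adjusted p = 0.032 from limma).

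The changes of its homologs were higher. GPX1, a peroxidase homolog linked to nutrient starvation, was at 0.44 when centred and 0.29 by quantiles, and HYR1 (GPX3), the peroxide sensor that oxidizes Yap1, was at 0.61 and 0.37. HYR1 had 10572 and 10246 in WT and 12030 and 10823 in nps1-13. Both passed as higher under every scaling but the deposited one, where they were at -0.039 and 0.13. Relative to HYR1, GPX2 changed by -0.76 on the log2 scale (combined standard error 0.13), and relative to GPX1 by -0.59 (combined standard error 0.12), with no overlap of the arrays in either pair (exact two-sided permutation p = 0.33 each). By quantiles these differences were smaller, -0.37 and -0.29.

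The enzymes that make glutathione moved in opposite directions when centred. GSH1, the rate-limiting enzyme, had 5256 and 5030 in WT and 6375 and 5300 in nps1-13, with 0.65 when centred and 0.51 by quantiles, but 0.18 as deposited, where it did not pass. GSH2, which adds glycine in the second step, had 4692 and 4425 against 2334 and 2171 and fell with -0.54 when centred and -0.60 by quantiles. GLR1, which reduces glutathione disulfide, was at 0.14 when centred, where it did not pass (adjusted p = 0.067 from limma), but passed as lower as deposited (-0.33), by quantiles (-0.13) and by cyclic loess (-0.13). Of 12 glutaredoxins and glutathione transferases, 2 rose and 3 fell, near the shares of all genes (9.41% and 30.3%). GTT1, a glutathione transferase of the endoplasmic reticulum, had 11075 and 10327 against 14031 and 14718 and rose 1.87-fold when centred, GTO1, a peroxisomal transferase, rose 1.74-fold, and GRX8, a cytosolic glutaredoxin, fell from 691 ± 77.2 to 288 ± 21.6 (SD, n = 2 arrays each).

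The changes of both activator genes stayed between -0.24 and 0.33 on the log2 scale over the 5 scalings. YAP1, the basic leucine zipper factor that senses peroxide, had 5053 and 4894 in WT and 4422 and 3993 in nps1-13. It was at 0.23 on the log2 scale when centred (standard error 0.05, adjusted p = 0.0022 from limma), -0.24 as deposited, where it passed as lower, and 0.095 by quantiles, where it did not pass. SKN7, the response regulator that cooperates with Yap1, had 2159 and 1780 against 1742 and 1598. It was at 0.24 when centred (standard error 0.06, adjusted p = 0.0059 from limma), 0.31 by quantiles and -0.23 as deposited, and its centred call was lost without WT replicate 2 (adjusted p = 0.077 from limma). The log2 difference between YAP1 and SKN7 was 1.23 and 1.46 in WT and 1.34 and 1.32 in nps1-13, so the arrays overlapped (change -0.011, combined standard error 0.08, exact two-sided permutation p = 1.0), whereas the change was -0.21 both by quantiles and by cyclic loess.

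Among the other regulators STB5 and YPD1 rose. YBP1, which binds Yap1 and helps its oxidation, belongs to the 4 of 11 regulator genes that fell, with CAD1 (YAP2), the Yap1 exporter CRM1 and MSN4. Of the 11 regulators 2 rose and 4 fell, beside 9.41% and 30.3% of all genes. The genes YBP1, CAD1 and CRM1, named after their values were seen, were at -0.47, -0.24 and -0.54 when centred. STB5, an activator of NADPH-producing genes, had 985 and 830 in WT and 1291 and 1117 in nps1-13 and rose 1.85-fold when centred. YPD1, the phosphorelay protein that passes phosphate to Skn7 and Ssk1, had 2604 and 2530 against 3632 and 3102 and rose 1.82-fold. MSN4, a stress activator that binds the same element as Msn2, had 2600 and 2239 against 1101 and 912, with -0.79 when centred (standard error 0.07, adjusted p = 6.55e-06 from limma). Its paralog MSN2, named after its values were seen, was at 0.54 when centred, 0.41 by quantiles and 0.059 as deposited, where it did not pass.

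**Figure D4:**
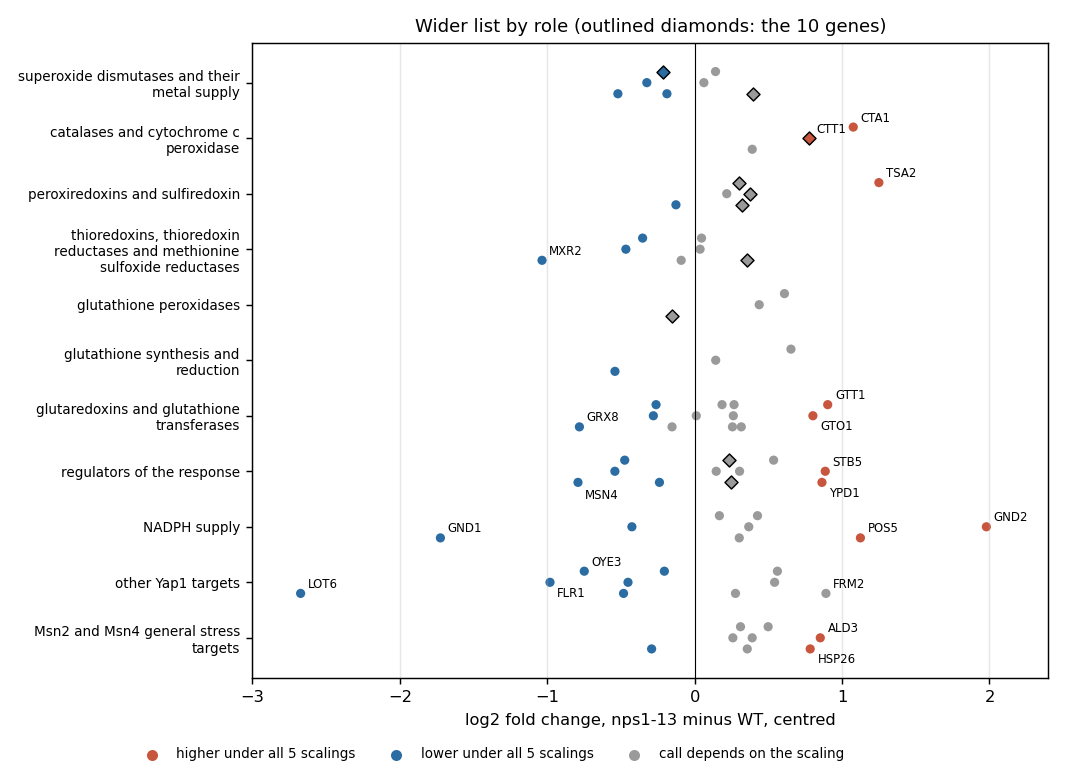
Centred log2 fold change, nps1-13 minus WT (x axis), of the 78 genes by role, coloured by whether limma called the gene in the same direction under all 5 scalings; outlined diamonds are the 10 genes and names mark changes beyond 0.7. In all, 11 genes rose and 25 fell, beside 9.41% and 30.3% of all genes tested. GND2 lies farthest to the right and LOT6 farthest to the left.

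NADPH, the electron source of both thioredoxin and glutathione, is made by enzymes whose genes include the largest increase of the 78. GND2 and GND1 encode the minor and the major isozyme of 6-phosphogluconate dehydrogenase in the pentose phosphate pathway. GND2 had 3761 and 3423 in WT and 9905 and 10435 in nps1-13 and rose 3.94-fold when centred (log2 1.98, standard error 0.06, adjusted p = 6.33e-09 from limma). GND1 had 8121 and 7769 against 1751 and 1703 and fell with -1.73 (standard error 0.05, adjusted p = 5.5e-09 from limma). The isozyme genes thus changed in opposite directions under all 5 scalings. POS5, the mitochondrial NADH kinase, had 2619 and 2436 against 4081 and 3839 and rose 2.18-fold. Of the 8 genes of NADPH supply 2 rose and 2 fell, where 9.41% of all genes rose and 30.3% fell. When centred 6 were higher and 2 lower (42.7% and 34.6% of all genes).

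Of 10 other known Yap1 targets, 6 fell and 0 rose, where 30.3% of all genes fell and 9.41% rose, with a median log2 fold change of -0.33 when centred and -0.51 by quantiles, beside 0.066 and -0.010 over all genes. LOT6, a quinone reductase, had 2670 and 2425 in WT and 286 and 288 in nps1-13, the largest decrease of the 78 genes (log2 -2.67 when centred, standard error 0.08, adjusted p = 5.16e-09 from limma). The remaining 4 of the 10 passed as higher when centred, by quantiles and by trimmed means (42.7%, 36.4% and 33.0% of all genes). By cyclic loess 3 of them passed as higher (36.7% of all genes). Yap1 targets placed in other roles, such as TRX2 and GPX2 (0.36 and -0.15 when centred), are not counted among these 10. The calls of TRX2 and GPX2 depended on the scaling, so this group does not stand for all Yap1 targets. FLR1, a drug efflux transporter, had 2375 and 2206 against 893 and 778 and fell with -0.98. FRM2, a nitroreductase-like protein, was dim, with 157 and 117 against 180 and 181, and was at 0.89 when centred but did not pass as deposited (0.41).

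Among 8 general stress targets of Msn2 and Msn4, the group to which CTT1 also belongs, 2 rose and 1 fell, where 9.41% of all genes rose and 30.3% fell. When centred 7 of the 8 were higher and 1 was lower (42.7% and 34.6% of all genes). As deposited 2 were higher and 4 lower (9.41% and 64.3% of all genes). ALD3, a cytosolic aldehyde dehydrogenase, had 9676 and 9429 in WT and 12252 and 12535 in nps1-13 and rose 1.81-fold when centred. HSP26, a small heat shock protein, rose 1.72-fold, with 11063 and 9995 against 15147 and 11178, where nps1-13 replicate 1 stood well above replicate 2. TFS1, an inhibitor of carboxypeptidase Y, was at 0.50 when centred and 0.022 as deposited, where it did not pass. The median of the 8 was 0.37 when centred and 0.048 by quantiles, beside 0.066 and -0.010 over all genes. For all genes with a mean signal above 10000 these medians were 0.30 and -0.0024.

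Over the 78 genes, 45 were higher and 25 lower when centred (42.7% and 34.6% of all genes). As deposited these counts were 11 and 46 (9.41% and 64.3% of all genes), and by quantiles 27 and 30 (36.4% and 37.7%). By the rule of all 5 scalings 11 rose (14.1%) and 25 fell (32.1%), next to 9.41% and 30.3% of all genes. The ratio of mean signals when centred was above 2 for 4 of the 78 genes and below 0.5 for 3, beside 4.88% and 4.96% of all genes.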

How the data were processed

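Total RNA of the 4 samples was hybridized to 1-colour Affymetrix Yeast Genome 2.0 arrays, 1 array per sample. Per the labels and the methods, the authors computed the deposited intensity of each of 5558 probe sets with GCOS and global scaling to a trimmed mean of 500. Over these 5558 probe sets the trimmed means lie between 3158 and 4285. None of the 4 arrays is thus at 500 over these probe sets, and the other probe sets of the platform were not examined. Probe-level files were not used here, and no genome sequence was used.

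The platform annotation, updated through the R64 RefSeq gene table, names 5345 probe sets and 5343 genes. The probe set with the highest mean log2 signal was kept for the 2 genes with several. All 78 probe sets of the wider list carry the plain suffix, without the marks of sets shared between related genes. Log2 signals were centred on the median of each array and fitted with limma 3.58.1 in R 4.3.3 (lmFit, eBayes with trend), with Benjamini-Hochberg adjustment over 5343 genes. The fit was tested on simulated data. Same-numbered arrays did not deviate together, so the replicate number was not taken as a pairing. Alternatives were the other scalings, an offset of 32 before log2, eBayes without trend, the replicate number as a block, minimum mean signals of 100 and 200, the mean of probe sets, and each array left out in turn. The genes named are the 10, all genes of the small groups that hold one of them, the partners of the 10 pairs, up to 3 most changed genes of each other group and the strain markers, with MSN2, YBP1, CAD1, CRM1 and GLR1 added after their values were seen. The 10 genes and the lists were chosen with earlier results of these data known, although no threshold on their values was used. The number of arrays limits the precision.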

Additional observations from a re-analysis of the deposited data

How the results depend on the processing

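The scaling of the arrays changed more calls than any other choice. As deposited, 503 genes were higher and 3435 lower over all genes (2283 and 1850 when centred), with 1 and 5 of the 10 genes and 11 and 46 of the 78. By quantiles and by cyclic loess, the latter added after seeing the data, 2 of the 10 and 27 of the 78 were higher, and by trimmed means 2 of the 10 were lower. As deposited, the log2 fold change turned negative for SOD1 (-0.078), TSA1 (-0.18), AHP1 (-0.15), PRX1 (-0.10), TRX2 (-0.12), YAP1 (-0.24), SKN7 (-0.23), CCS1 (-0.33), MTM1 (-0.41), CCP1 (-0.086), SRX1 (-0.26), TRR1 (-0.43), TRR2 (-0.44), GPX1 (-0.039), GLR1 (-0.33) and the markers HIS3 (-0.19), MFA1 (-0.12) and BAR1 (-0.17). TSA1, MTM1, TRR1, TRR2 and GLR1 were also negative by quantiles (-0.067, -0.051, -0.15, -0.058 and -0.13) and by cyclic loess (-0.033, -0.038, -0.17, -0.057 and -0.13), and MTM1, TRR1 and TRR2 by trimmed means (-0.069, -0.085 and -0.095). GPX2 turned positive by cyclic loess (0.018). Of 73 named genes, markers included, 45 kept their direction and their side of the threshold as deposited, 60 by quantiles, 59 by cyclic loess and 63 by trimmed means. Part of these changes follows from the centring itself, which adds 0.48 to every log2 fold change, and the cause of the shift between the arrays was not tested.

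When 1 array was left out at a time, the number of the 10 genes called lower ranged from 0 (without WT replicate 2) to 2 (without nps1-13 replicate 1). Of the 73 named genes, 66 kept direction and call without WT replicate 2 and 72 without nps1-13 replicate 2, where TRR2 turned negative (leaving out 1 array at a time gave it -0.048 to 0.12). With the replicate number as a block, 2249 genes were higher and 1799 lower, and among the named genes CCS1 and DOT5 lost their call (adjusted p = 0.083 and 0.051 from limma) and GLR1 passed as higher (adjusted p = 0.018 from limma). The block changed no other call of a named gene. With the numbers crossed, also added after seeing the data, 2313 genes were higher and 1917 lower. With 2 arrays per strain, a p-value rests on the spread that limma shares between genes, and GPX2, the dimmest of the 10, had the widest interval among them.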
